A study of Mus musculus with 6 samples.

Results

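The MYB transcription factor family has 3 genes in the mouse, Myb (c-Myb), Mybl1 (A-Myb) and Mybl2 (B-Myb), and all 3 were measured among the 19938 genes of this array study. They were chosen by gene symbol: every probe set that GEO's platform annotation assigns to 1 of these symbols was taken, which gave 1 probe set for each gene. Natural killer (NK) cells, innate lymphocytes that kill infected and transformed cells, were sorted from spleens of C57Bl/6 mice aged 8 to 12 weeks directly after harvest, by the markers YFP+CD27+NK1.1+CD3-. The 3 arrays labelled 15a/16-1FKO, called the knockout here, were compared with 3 arrays labelled Ctrl. The labels do not spell out the FKO genotype or what drives YFP, nor do they say whether animals were pooled. The series' title names c-Myb as a target of microRNA-15/16, and the comparison asks how transcripts of the MYB family differ when microRNA-15a and microRNA-16-1 are lost from CD27+ NK cells.

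MYB proteins bind DNA through tandem MYB repeats and mostly activate transcription. c-MYB keeps blood progenitors and immature lymphocytes in cycle and holds back their terminal differentiation. B-MYB is made in dividing cells of nearly all kinds, where it joins the MuvB complex and, with FOXM1, switches on genes of G2 and mitosis. A-MYB is best known from male germ cells, where it drives meiotic genes and the precursors of piRNAs. MicroRNAs of the miR-15/16 family lower their targets by pairing of the seed, bases 2 to 8 of the mature strand, with sites that lie mostly in 3' untranslated regions.

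The mature strands made by the deleted genes share their seed with microRNAs from other loci, which is why they are shown here. In the RefSeq table of GRCm38.p6, at least 10 differently named mature strands from at least 11 loci carried this 7-base seed. The search did not cover every chromosome. The seed is in capitals.
miR-15a-5p (Mir15a, chr14:61632075-61632096, minus strand): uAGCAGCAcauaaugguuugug
miR-16-5p (Mir16-1, chr14:61631936-61631957, minus strand): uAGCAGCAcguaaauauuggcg
miR-15b-5p (Mir15b, chr3:69009775-69009796, plus strand): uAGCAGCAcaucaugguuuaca
miR-195a-5p (Mir195a, chr11:70235062-70235082, plus strand): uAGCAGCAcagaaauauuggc
miR-497a-5p (Mir497, chr11:70234730-70234751, plus strand): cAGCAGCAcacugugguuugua
The strand named miR-16-5p is also made from Mir16-2 on chromosome 3, so its sequence comes from a locus outside the deleted one as well. Sites in the MYB transcripts were not searched, because transcript sequences were not used here.

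The deleted gene and the sort were checked first. The Mir15a probe set lay at 3.43 to 4.37 on the log2 scale in the knockout and at 6.02 to 7.14 in control arrays (limma log2 difference -2.84, SE 0.31, adjusted p = 0.0296). The Mir16-1 probe set lay at 2.76 ± 0.21 in the knockout and 3.39 ± 0.33 in control arrays (n = 3 each), lower in every knockout array but under the background mark given next (limma log2 difference -0.63, SE 0.19, adjusted p = 0.999). All 11 measured NK cell markers lay above 4.13, the mean level under which 95% of 1027 olfactory receptor genes lay and which serves here as a mark of background. Klrb1c, which encodes the NK1.1 antigen of the sort, was at 9.73 ± 0.10 in the knockout and 9.72 ± 0.05 in control arrays (mean ± SD, n = 3 each). The arrays of each genotype are described as technical replicates in the design text, and p-values then measure no more than the spread between arrays. Sex-linked transcripts nevertheless differed among them. Xist, the transcript of the inactive X chromosome, ranged from 3.89 to 9.65 over the control arrays, and Eif2s3y, a Y-linked translation factor gene, from 2.33 to 7.95. Control array 1 had the highest Xist and the lowest Eif2s3y, and control array 2 the reverse. Control array 3 had both, at 8.86 and 6.29. So did each knockout array, with Xist at 7.56 to 8.84 and Eif2s3y at 6.18 to 7.88. Over all genes, 3 were higher and 1 was lower in the knockout by limma with Benjamini-Hochberg adjustment at 0.05, and no MYB gene was among them. These calls were 0.015% of the genes tested for the higher ones, 0.00502% for the lower one and 0.0201% in all.

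Myb was slightly higher in every knockout array, with the smallest spread of the family, and did not pass the adjusted threshold. Its log2 level was 7.38, 7.32 and 7.28 in the knockout arrays 1 to 3 and 7.20, 7.08 and 7.05 in the control arrays. Every knockout array therefore lay above every control array, with a gap of 0.08 between the nearest of them. The mean was 7.33 ± 0.05 in the knockout and 7.11 ± 0.08 in control arrays (n = 3 each), a log2 difference of 0.22 that corresponds to 1.16-fold. By limma the 95% interval ran from -0.07 to 0.51 (SE 0.13, adjusted p = 0.999), that is from 0.95-fold to 1.42-fold. The exact two-sided permutation test gave p = 0.1, and 3 arrays against 3 cannot give a smaller p. The probe set lists RefSeq transcripts of 1 gene and does not tell their isoforms apart. In bulk RNA, fewer cells that express a gene and less RNA per cell cannot be told apart.

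Part of the width of this interval came from the spread of other genes, and part from Myb itself. The residual SD of Myb was 0.066, smaller than that of all but 2.92% of genes, against a median of 0.197. Limma drew it toward the shared value of 0.201 and used 0.159. With the spread of Myb alone, without moderation, the difference of 0.22 had an interval from 0.07 to 0.37, and its adjusted p by limma's unmoderated fit was still 0.999. Of all genes, 9.42% had a difference at least as high as that of Myb. A shift of this size in Myb was thus larger than the spread of its own arrays and common among all transcripts.

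Mybl1 had the largest difference of the family, at a level in the background range. Its log2 level was 3.28, 2.76 and 2.76 in the knockout arrays and 2.33, 2.66 and 2.36 in the control arrays. Every value lay under the olfactory receptor mark of 4.13, and the groups did not overlap, with a gap of 0.10 that separates knockout arrays 2 and 3 from control array 2. The means were 2.93 ± 0.30 and 2.45 ± 0.18 (n = 3 each), with a log2 difference of 0.48 (95% interval 0.07 to 0.89, SE 0.18, limma adjusted p = 0.999, unadjusted p = 0.0251). The exact permutation p was again 0.1. Knockout array 1 stood highest. Without it, the difference was 0.31 with an interval of -0.07 to 0.68. Values in this range understate a true change, so no fold is given for Mybl1.

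Mybl2 differed in the other direction, and its groups overlapped. Its log2 level was 4.27, 4.94 and 4.48 in the knockout arrays and 4.78, 4.67 and 5.06 in the control arrays. Knockout array 2 lay above control arrays 1 and 2, while knockout arrays 1 and 3 lay below every control array. The means were 4.56 ± 0.34 and 4.84 ± 0.20 (n = 3 each), a log2 difference of -0.27 with an interval of -0.71 to 0.16 (SE 0.19, limma adjusted p = 0.999). The exact permutation test gave p = 0.3. Single arrays moved this value by more than 1.5 times: it was -0.13 without knockout array 1, -0.46 without knockout array 2 and -0.16 without control array 3. The interval still includes a fall to 0.61-fold and a rise to 1.12-fold.

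**Figure D1:**
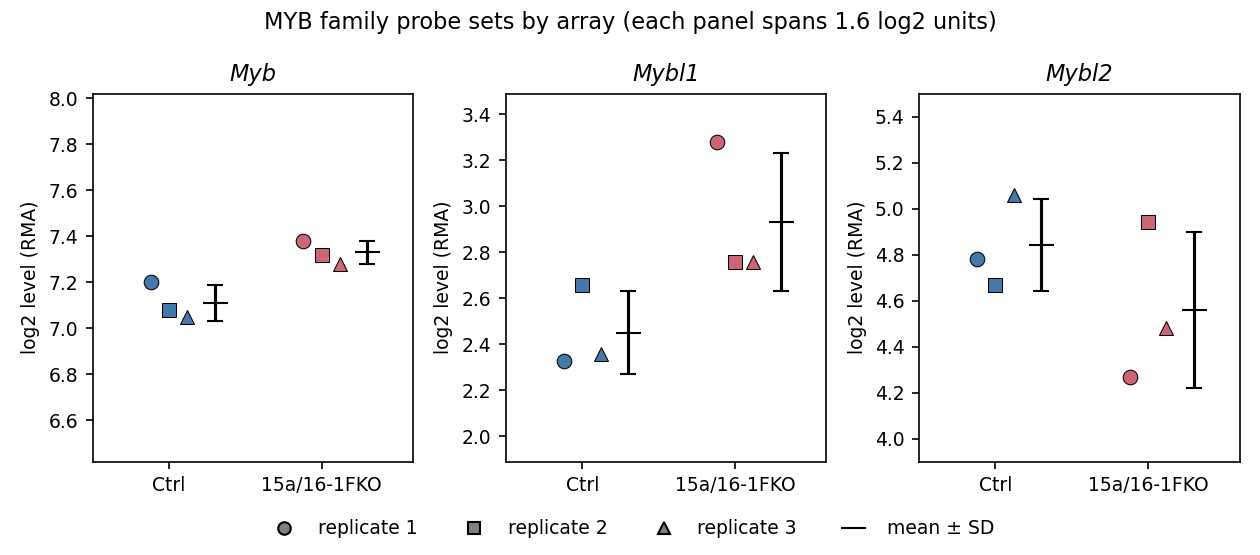
The log2 levels of Myb, Mybl1 and Mybl2 are plotted for each of the 3 control (Ctrl) and 3 knockout (15a/16-1FKO) arrays, with the mean ± SD beside them. Each vertical axis spans the same log2 range around its gene. Knockout arrays lie above all control arrays for Myb and Mybl1 and overlap with them for Mybl2.

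Over the family, 2 of 3 genes were higher without overlap, where 3.68% of all genes were, and 1 of 3, Mybl1, had an unadjusted limma p under 0.05 in that direction, where 1.55% of all genes did. Whether the genes changed unequally was tested on the differences between 2 members within each array, for 3 pairs. The change of Myb exceeded that of Mybl2 by 0.49 (SE 0.25, exact permutation p = 0.3, adjusted p = 0.3). For Mybl1 against Mybl2 the excess was 0.75 (SE 0.40, exact permutation p = 0.2, adjusted p = 0.3), and for Myb against Mybl1 the change was -0.26 (SE 0.20, exact permutation p = 0.3, adjusted p = 0.3). With the sex-linked transcripts as a covariate, the differences were 0.22 for Myb, 0.49 for Mybl1 and -0.27 for Mybl2. With 3 arrays against 3 these exact permutation tests cannot go below p = 0.1, and pairs with Mybl1 rest on its background-range values, so whether the members changed unequally is not settled here. Without knockout array 1, the value for Mybl1 against Mybl2 was 0.43, for Myb against Mybl1 -0.12 and for Myb against Mybl2 0.32. Myb against Mybl1 was also smaller without control array 1, at -0.16.

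**Figure D2:**
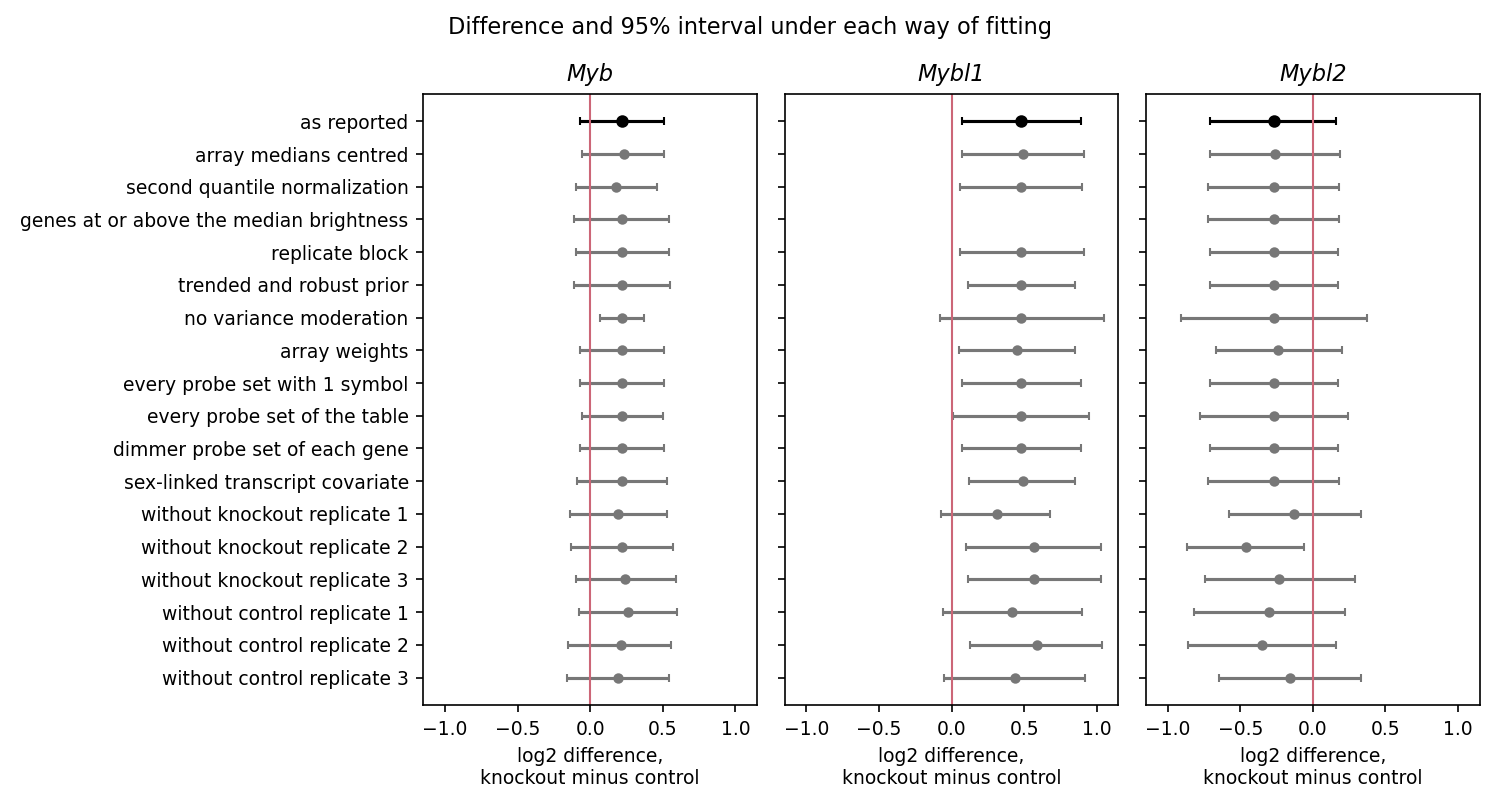
The log2 difference, knockout minus control, is plotted with its 95% interval for each MYB gene as reported (black) and under each other way of fitting (grey), and the red line marks 0. Myb stays between 0.18 and 0.26, and its interval leaves out 0 in 1 of 17 alternatives, the unmoderated fit. Mybl1 has no point for the brightness filter, which removes it.

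Markers of cells that could carry Myb were set beside its values. Of 9 haematopoietic progenitor markers, 1 was higher on average in the knockout. Their median difference was -0.10, and Cd34, Flt3, Meis1 and Cebpa lay under the olfactory receptor mark. Levels of these markers were summed on the unlogged scale, where the brightest weigh most. The log2 of the sum was 7.20 to 7.38 in the knockout and 7.26 to 7.52 in control arrays. For 5 erythroid markers the sums were 6.27 to 6.43 and 6.27 to 6.48, with Klf1, Gata1 and Epor under the mark. For 6 B cell markers the sums were 6.67 to 7.03 and 6.62 to 7.18, with Ms4a1, Cd79a and Blk under the mark. For 9 myeloid markers they were 9.96 to 10.34 and 9.57 to 10.18, with Csf1r, Adgre1, Ly6g and Mpeg1 under the mark. Itgax was the brightest of the myeloid list, at 9.27 ± 0.27 in the knockout and 9.07 ± 0.26 in control arrays (n = 3 each). The neutrophil gene S100a8 of the myeloid list differed by 0.77 (SE 0.32, limma adjusted p = 0.999), with overlapping groups. For 9 T cell markers the sums were 9.47 to 9.73 in the knockout and 9.34 to 9.48 in control arrays. Cd28, a costimulatory receptor and the 1 T cell marker higher without overlap, was at 8.31 to 8.50 in the knockout and 7.91 to 8.14 in control arrays. Of all genes, 3.68% were higher without overlap. The T cell sums overlapped narrowly with Cd28, at 9.47 in the knockout and 9.48 in control arrays. Without Cd28, an alternative chosen after seeing the data, they overlapped too, at 8.44 to 8.97 and 8.65 to 8.76. Cd4, Cd8a, Cd8b1, Cd5 and Cd6 lay under the mark. The CD3 subunits lay above it, although the cells were sorted as CD3-. Their 6-array means were 7.33 for Cd3d, 6.84 for Cd3g and 6.34 for Cd3e. Cd3d differed by 0.16 (SE 0.22), Cd3g by 0.12 (SE 0.26) and Cd3e by -0.19 (SE 0.27). The part of these cells in the Myb difference was not tested. No marker in these lists passed the adjusted limma threshold.

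Of 14 measured genes that MYB is known to activate, 4 were higher and 10 lower on average. Their median difference was -0.06, where that of all genes was -0.01, and -0.15 without knockout array 2, -0.01 without knockout array 3 or control array 2, and -0.11 without control array 3. By limma 0 rose and 0 fell at the adjusted threshold. Kit, the stem cell factor receptor, was the exception in size. It lay at 7.73, 7.78 and 7.56 in knockout and at 6.73, 7.27 and 6.99 in control arrays, with a difference of 0.69 (SE 0.17, limma adjusted p = 0.999), and it was the 1 gene of the list higher without overlap, where 3.68% of all genes were. Rag2, a recombinase subunit of developing lymphocytes, was the 1 gene lower without overlap (-0.22, SE 0.14), at levels under the olfactory receptor mark, where 4.65% of all genes were lower without overlap. Cd34, the progenitor sialomucin, differed by -0.33 (SE 0.20) at levels under the olfactory receptor mark. Among regulators and survival genes, Myc differed by -0.08 (SE 0.21), Gata3, a factor of lymphocyte fate, by -0.11 (SE 0.24), Bcl2, which blocks apoptosis, by 0.14 (SE 0.15) and the chemokine receptor Cxcr4 by 0.13 (SE 0.25). Of the 14, 10 had the sign opposite to Myb, where 10389 of all 19938 genes were lower on average. Of these 10, 0 had an unadjusted limma p under 0.05.

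Of 15 cofactors and modifiers, proteins that help or restrain c-MYB, 9 were higher and 6 lower on average. The median difference was 0.08, with a range of -0.25 to 0.20, and by limma 0 rose and 0 fell. That median was -0.01 without knockout array 1 and at most 0.04 without knockout array 2 or control array 1 or 3. The coactivator Crebbp, whose KIX domain binds c-MYB, differed by 0.14 (SE 0.17), and its relative Ep300 by -0.12 (SE 0.18). Kmt2a, the histone methyltransferase that binds MYB together with menin, differed by -0.02 (SE 0.18), and Men1, which encodes menin, by 0.17 (SE 0.15). Psip1, the chromatin tether of that complex, differed by 0.20 (SE 0.15). The smallest p of the list was that of Ppid, a cyclophilin that inhibits DNA binding by c-MYB. Ppid was at 7.17, 7.02 and 7.08 in knockout and at 7.25, 7.35 and 7.40 in control arrays, lower in each knockout array, with a difference of -0.25 (SE 0.13, limma adjusted p = 0.999). It was the 1 gene of its list lower without overlap, where 4.65% of all genes were.

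Of 12 genes of the DREAM and MuvB complexes and factors acting with them, 8 were higher and 4 lower on average. The median difference was 0.10, and by limma 0 rose and 0 fell. That median lay between 0.03 and 0.11 when 1 array was left out, at 0.04 or less without knockout array 1 or 3 or control array 2 or 3. The MuvB subunits Lin9 and Lin37 had the smallest p and opposite signs, 0.41 (SE 0.22) and -0.40 (SE 0.24). Knockout array 2 stood apart for Lin37, at 5.34 where the other 5 arrays lay between 6.20 and 6.50. Foxm1, the forkhead factor recruited after B-MYB, differed by -0.06 (SE 0.14), and the repressor E2f4 by -0.11 (SE 0.17).

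Of 20 G2 and mitosis genes measured, 8 were higher and 12 lower on average, the median difference was -0.03, and by limma 0 rose and 0 fell. That median was -0.10 without knockout array 3, -0.09 without control array 1 and -0.08 without control array 2. The cyclin Ccna2 had the largest difference, -0.75 (SE 0.34), from 6.19, 4.99 and 6.17 in knockout and 6.29, 6.21 and 7.10 in control arrays. Its groups came close, at 6.19 and 6.21, without overlap, with knockout array 2 far below and control array 3 far above. Bub1b, a spindle checkpoint kinase, differed by -0.38 (SE 0.16, limma adjusted p = 0.999) close to the olfactory receptor mark. Ccna2 and Bub1b were the 2 of 20 lower without overlap, where 4.65% of all genes were. The proliferation marker Mki67 differed by -0.02 (SE 0.19), the mitotic kinase Cdk1 by 0.09 (SE 0.13) and Plk1 by 0.11 (SE 0.20). Array by array, Mybl2 and these genes parted in some arrays. In knockout array 2 Mybl2 stood 0.24 above its 6-array mean while the G2 and mitosis genes averaged 0.26 below theirs (-0.26), and in control array 3 both were high, at 0.36 and 0.21. In knockout array 1, where Mybl2 was lowest at -0.43, these genes averaged 0.05.

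**Figure D3:**
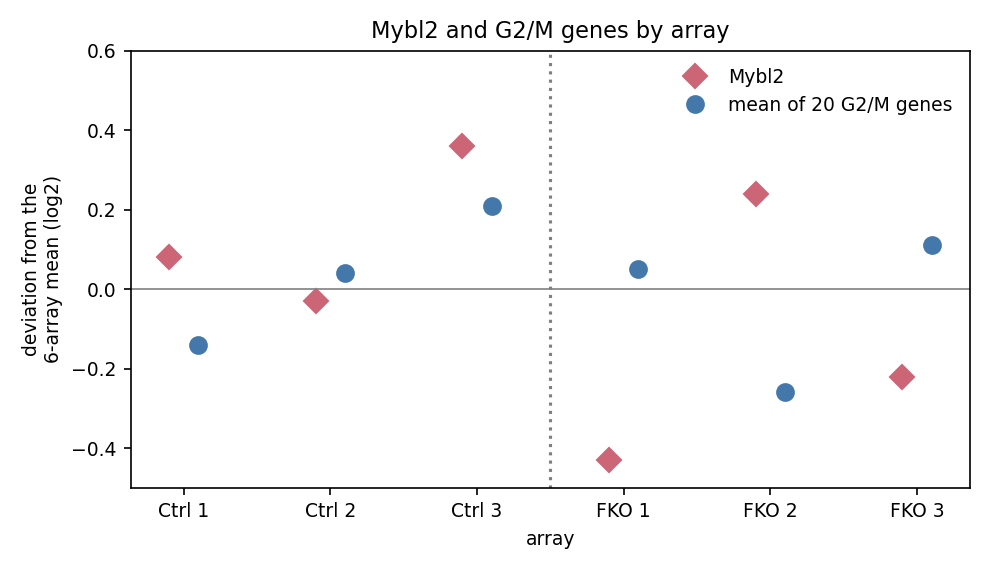
Deviation of Mybl2 (diamonds) and of the mean of 20 G2 and mitosis genes (circles) from their 6-array means, in log2 units, for each control (Ctrl) and knockout (FKO, for 15a/16-1FKO) array. The pair stands on opposite sides of 0 in 5 of the 6 arrays and together only in Ctrl 3. Some of these values are close to 0. In Ctrl 2 they are -0.02 for Mybl2 and 0.04 for the mean, and the list's median there is -0.01, on the side of Mybl2.

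The promoters of Myb and Mybl2 both hold a core that E2F factors can bind, and Mybl2 is a textbook E2F gene repressed by E2F4 complexes in resting cells. They are shown because the DREAM genes above include those factors. The motif GGCGGGA was searched on both strands in the 300 bases from 250 before to 50 after each RefSeq start (GRCm38.p6), and 11.3% of 32851 promoters held it. Mybl1 had no entry. The motif is in capitals, and both stretches read along the gene's strand.
Myb (chr10:21160957-21161023, minus strand): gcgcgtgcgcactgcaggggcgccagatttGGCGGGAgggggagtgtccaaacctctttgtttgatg
Mybl2 (chr2:163054592-163054658, plus strand): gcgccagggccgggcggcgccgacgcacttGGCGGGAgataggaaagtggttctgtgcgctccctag
In each, the motif was the 1 match in the promoter. It began 9 bases before the annotated start of Myb and 13 before that of Mybl2. The match describes the letters and says nothing of binding in these cells.

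Germ cell genes of the piRNA pathway, the setting of A-MYB, were mostly in the background range. Of 7, 1 lay above the olfactory receptor mark, Pld6, a mitochondrial phospholipase-like protein of piRNA processing, with a difference of 0.19 (SE 0.14). Pld6 was also the 1 gene of the 7 higher without overlap, where 3.68% of all genes were. The other genes of the list included Piwil1, the PIWI protein of meiotic cells, at 0.02 (SE 0.13), and Tdrd6, a tudor domain protein, at -0.32 (SE 0.16). The median difference was 0.00, 4 were higher and 3 lower on average, and by limma 0 rose and 0 fell. That median was -0.10 without knockout array 3. Across the 7 lists of partners, targets, relatives and neighbours of the family, Kit was the 1 gene higher and Bub1b the 1 gene lower at an unadjusted limma p under 0.05, where 1.55% of all genes were higher and 1.91% lower at that level. Among the cell type markers described above, Cd28 and S100a8 were also higher at that level.

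**Figure D4:**
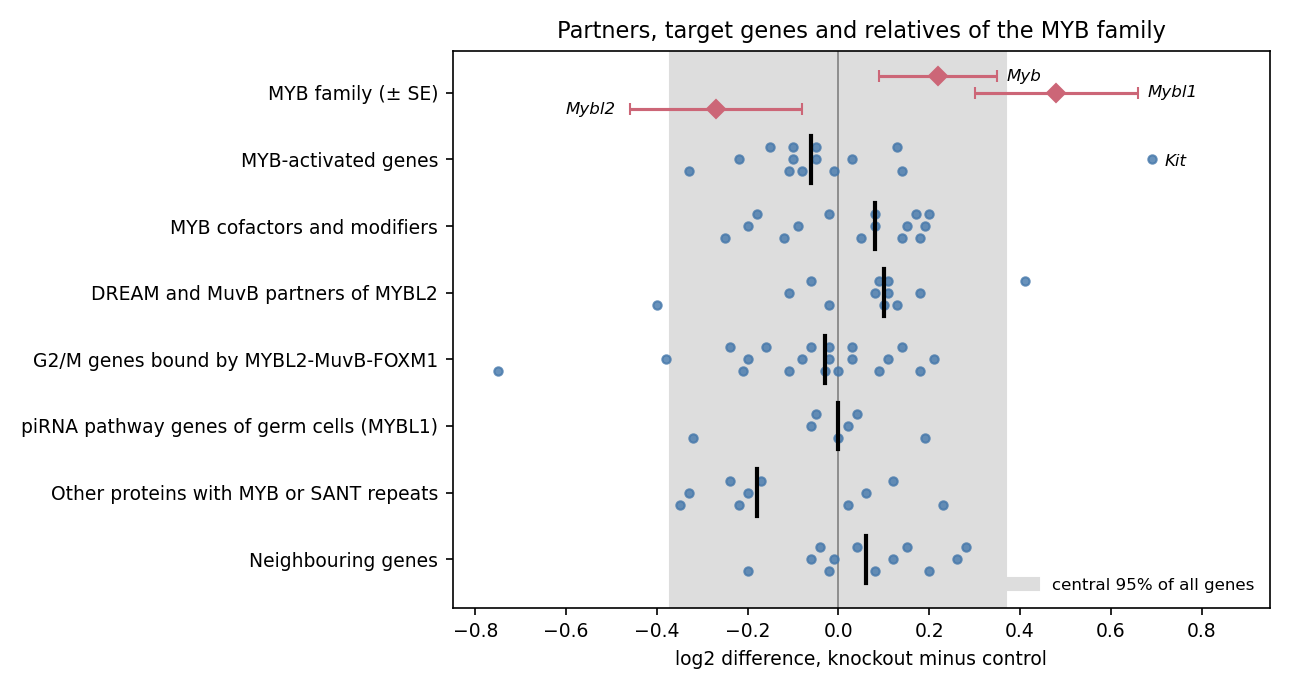
The log2 difference, knockout minus control, is plotted for the MYB genes (red diamonds, ± SE) and for each gene of 7 lists of partners, targets, relatives and neighbours (blue points). Black bars are list medians, between -0.18 and 0.10, and the grey band from -0.37 to 0.37 holds the central 95% of all genes. Kit at 0.69 and Ccna2 at -0.75 lie farthest out.

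The genes whose values followed each MYB gene most closely over the 6 arrays were found by Pearson's r among 9404 brighter named genes. They were picked as the highest of all these coefficients over 6 arrays, so they only describe. Myb was followed by Cd28, which NK cells of mice can also carry (r = 0.986), the anaphase-promoting complex subunit Anapc1 (r = 0.973), the cation exchanger Slc24a5 (r = 0.968) and the nuclear receptor Nr1d2 (r = 0.964). Cd28 differed by 0.43 (SE 0.14, limma adjusted p = 0.999). For Mybl1 the closest were the plexin Plxnc1 (r = 0.993), Slc25a32 (r = 0.985), the calcineurin subunit Ppp3cb (r = 0.983) and Efl1 (r = 0.978). Plxnc1 differed by 0.77 (SE 0.25, limma adjusted p = 0.999). For Mybl2 they were Sftpa1 (r = 0.988), Fggy (r = 0.986), Trmt6 (r = 0.980) and Heatr3 (r = 0.971), with differences between -0.17 and -0.13. None of the Mybl2 companions belongs to the G2 and mitosis list.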

How the data were processed

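Per the labels' protocols, RNA of 6 samples was extracted with Trizol and Directzol columns, labelled with biotin and hybridised to Affymetrix arrays. The values deposited by the authors are on the log2 scale and cover 35556 probe sets. RMA and Partek 6.6 are named in the submitters' processing notes, without their steps. Array medians lay between 4.23 and 4.33. Arrays carry no read depth, and their number limits the precision. The build behind the authors' values is not stated, and coordinates printed here are those of the RefSeq tables (GRCm38.p6).

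Of the probe sets, 21789 had 1 symbol in GEO's platform annotation, 1621 several and 12146 were not listed. Each of 19938 genes was represented by its brightest probe set. Genotypes were compared by limma (version 3.58.1, R version 4.3.3), with lmFit and eBayes on the values as deposited, genotype as the only term and no filter. Tests were two-sided, with Benjamini-Hochberg adjustment over all genes. The script was tested on simulated data. Pairs of members were compared by exact permutation. Lists were described by counts and medians without a set test. The members and lists were chosen with earlier results of these data known.

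Named genes were the members, list members with an unadjusted p under 0.05 or the 2 smallest of a list, the 2 nearest genes on each side of a member, and the 4 genes closest to each by Pearson's r. Some further list members, Rag2 among them, and Mir16-2, Mir195a, Mir497 and Mir150, were named for their roles after their values were seen.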

Additional observations from a re-analysis of the deposited data

How the results depend on the processing

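The sign of each MYB gene was kept in all alternatives run: 17 for Myb (0.18 to 0.26), 16 for Mybl1 (0.31 to 0.59) and 17 for Mybl2 (-0.46 to -0.13), with adjusted limma p-values of 0.991 to 1.0. Leaving out 1 array at a time gave 0.19 to 0.26 for Myb and the same full ranges for Mybl1 and Mybl2. Intervals of Mybl1 included 0 in 4 of 16 alternatives: the unmoderated fit and the fits without knockout replicate 1, control replicate 1 or control replicate 3. That of Mybl2 left out 0 only without knockout replicate 2. Over all genes the unmoderated fit called 0 higher and 0 lower (308 and 414 at an unadjusted p under 0.05), and testing every probe set of the table likewise 0 and 0 (663 and 551). The sex-linked covariate called 2 higher and 0 lower (310 and 388 unadjusted). Leaving out 1 array gave 2 higher in each case and 0 to 1 lower, with 0 lower without knockout replicate 2 or 3 or control replicate 1 or 3. The cause was not tested. Of 70 list medians recomputed, 64 moved by less than the SD between arrays and 6 by more. The replicate numbers do not settle a pairing: same-numbered arrays had correlated deviations of 0.048, 0.148 and 0.141, though each array correlated best with its own number. With the replicate block, Myb differed by 0.22 (SE 0.14), Mybl1 by 0.48 (SE 0.19) and Mybl2 by -0.27 (SE 0.19), and 2 genes were called higher and 1 lower. The number of arrays limits what can be detected.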

Other observations

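The nearest measured genes of the MYB loci had differences between -0.20 and 0.28, 7 of 12 positive, with a median of 0.06, and 0 passed the limma threshold, adjusted or, at 0.05, unadjusted. Beside Myb, the ribosome rescue factor Hbs1l was at 7.54, 7.17 and 7.18 in knockout and at 7.23, 6.86 and 6.95 in control arrays (difference 0.28, SE 0.16), and Ahi1, a ciliary protein on the other side, differed by -0.01 (SE 0.21). One gene farther out, Aldh8a1 differed by 0.08 (SE 0.17) and Pde7b by 0.12 (SE 0.18). Vxn and Adhfe1, both on one side of Mybl1, were the 2 of 12 higher without overlap, where 3.68% of all genes were, with differences of 0.20 (SE 0.13) and 0.15 (SE 0.14) at levels under the olfactory receptor mark. The deubiquitinase Vcpip1, next to Mybl1 on its other side, differed by 0.26 (SE 0.15) and Sgk3 beyond it by -0.06 (SE 0.17). The genes next to Mybl2, Ift52 of intraflagellar transport and Gtsf1l, differed by -0.02 (SE 0.27) and 0.04 (SE 0.15), and those beyond them, Sgk2 and Tox2, by -0.20 (SE 0.21) and -0.04 (SE 0.17). The median over the 12 was 0.14 without control replicate 2 and -0.02 over the brighter genes alone.

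Of 10 other proteins with MYB or SANT repeats, 4 were higher and 6 lower on average, and the median difference of -0.18 was -0.03 without knockout replicate 3. By limma 0 rose and 0 fell, also at an unadjusted p under 0.05. The transcription termination factor Ttf1 differed by -0.33 (SE 0.15) and the ribosome-associated chaperone Dnajc2 by -0.35 (SE 0.16), while the splicing factor Cdc5l differed by 0.02 (SE 0.15). Ttf1 was the 1 gene of the 10 lower without overlap, where 4.65% of all genes were.

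Probe sets of 4 other precursor genes with the miR-15/16 seed were looked at. Each was lower on average in the knockout and none passed, with Mir15b by -0.29 (SE 0.22), Mir16-2 by -0.11 (SE 0.15), both under the olfactory receptor mark, Mir195a by -0.20 (SE 0.18) and Mir497 by -0.40 (SE 0.20). Mir150, the precursor of a microRNA known to repress Myb in lymphocytes, averaged 5.34 ± 0.17 in the knockout against 5.52 ± 0.20 in controls (SD, n = 3 each), with a difference of -0.17 (SE 0.16, limma adjusted p = 0.999).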
